A study of Mus musculus with 144 samples.

Results

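The 10 genes described here make, consume or dispose of NAD or its precursors: Nampt, Naprt, Kmo, Haao, Qprt, Nmnat1, Nmnat3, Nadsyn1, Nnmt and Sirt1. They were chosen by name from the steps of NAD metabolism, and all 10 are among the 51912 genes of the deposited count table. Their RNA was counted with QuantSeq, a method that sequences from the poly(A) tail and so samples 3′ ends, in mouse liver libraries from a study of how the polyadenylation sites used in liver change over the day. The libraries form 4 series of 36. Wild-type (WT) mice gave total, nuclear and polysomal RNA, and Bmal1-/- mice gave total RNA; the latter lack a core activator of the circadian clock. Per series, 6 libraries were made at ZT2, ZT6, ZT10, ZT14, ZT18 and ZT22 (zeitgeber time, counted in hours from lights on). All mice were male C57BL/6J with free access to food and water under 12 h of light and 12 h of dark. Nuclei came from frozen liver by homogenization and a sucrose cushion, and polysomes from frozen liver in cycloheximide buffer by a sucrose gradient. The labels give no age, do not say which part of Bmal1 is removed or in which tissues, and do not say that each library is a separate animal. The p-values therefore measure the spread between these libraries.

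NAD carries electrons in metabolism and is also split by sirtuins and PARPs, which release nicotinamide, so liver must keep rebuilding it. Nicotinamide returns through NAMPT (salvage), nicotinic acid enters through NAPRT, and tryptophan is turned into quinolinic acid through the kynurenine route, where KMO and HAAO act and QPRT takes the product to the NAD line. NMNAT enzymes and NADSYN1 finish NAD, NNMT methylates nicotinamide for disposal, and SIRT1 uses NAD to deacetylate proteins. The BMAL1 and CLOCK pair is known to bind E-boxes and to drive Nampt, and SIRT1 is known to act back on the clock.

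Promoter windows of 300 bases (250 before to 50 after the start, RefSeq, GRCm38.p6) were found for 8 of the 10 genes; Naprt and Nnmt had no entry. They were searched on both strands for the E-box CACGTG, the related CACGTT, then for AGGTCA (the half-site of ROR and REV-ERB receptors) and TTATGTAA (the D-box of PAR bZIP factors). CACGTG and CACGTT differ in their last letter only. CACGTG is in 7.15% of all 32851 windows, CACGTT in 4.68%, AGGTCA in 16.3% and TTATGTAA in 0.938%. The 250 bases before the start are shown for Nampt, the gene with the largest change in Bmal1-/- RNA, and for Sirt1, the gene whose window has CACGTG, at -115 and -43. Capitals mark the motif matches.
Nampt, chr12:32820085-32820334, plus strand: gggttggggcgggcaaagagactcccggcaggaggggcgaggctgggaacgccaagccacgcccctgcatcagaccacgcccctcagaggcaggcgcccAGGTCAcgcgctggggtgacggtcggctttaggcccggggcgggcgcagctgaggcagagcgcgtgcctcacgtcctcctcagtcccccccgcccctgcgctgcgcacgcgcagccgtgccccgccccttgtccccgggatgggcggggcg
Sirt1, chr10:63339036-63339285, minus strand: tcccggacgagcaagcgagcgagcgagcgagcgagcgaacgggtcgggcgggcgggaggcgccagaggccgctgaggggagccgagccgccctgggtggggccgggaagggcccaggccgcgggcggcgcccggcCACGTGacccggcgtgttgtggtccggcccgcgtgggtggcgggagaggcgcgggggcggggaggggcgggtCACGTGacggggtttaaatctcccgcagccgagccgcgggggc
In Nampt the match is AGGTCA, with its first base at -151. Nmnat3 has AGGTCA at 24 after the start. Haao has AGGTCA at -58 and CACGTT at 41. The remaining windows, of Kmo, Qprt, Nmnat1 and Nadsyn1, hold none of the 4 motifs. These are matches of letters and not measured binding sites.

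Depth, the sum of gene counts in a library, was 5316601 to 9831142 in WT total RNA, 1662449 to 6620128 in nuclear RNA, 2578048 to 13068044 in polysomal RNA and 4379549 to 14281894 in Bmal1-/- RNA. All 5 hepatocyte markers (Alb, Apoa1, Ttr, Cps1, Serpina1c) were present in each series, and 2 nuclear transcripts (Malat1 and Neat1) summed to a median of 2726 CPM (counts per 1000000 gene counts of the library) in nuclear RNA, 1964 in total RNA and 58.7 in polysomal RNA. Some libraries went against their labels. By 16 clock genes, 98 of the 108 WT libraries lay nearest their labelled time, and 3 labelled ZT14 lay much nearer ZT22: total replicate 4, nuclear replicate 4 and polysomal replicate 3. Xist, a transcript of female cells, exceeded 100 CPM in 4 libraries labelled male, all at ZT22 (total and nuclear replicate 5, polysomal replicate 1 and Bmal1-/- replicate 6). The polysomal replicate 1 libraries also held lung and pancreas transcripts, with summed markers of up to 915 and 1524 CPM. The comparisons below that use these libraries were also run without them, with some exceptions. These are the site rhythms outside WT total RNA, the fits of site counts summed per gene, the site usage at a lowered count minimum and the correlations with Nampt. Leaving out the ZT14 and Xist libraries was chosen after seeing the data.

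Reads of Arntl, which encodes BMAL1, appeared in every Bmal1-/- group, with means from 9.16 to 13.1 CPM, and in WT total RNA its means ran from 0.852 CPM at ZT10 to 12.6 CPM at ZT22. Its 24 h rhythm differed between the series (difference in log2 peak-to-trough ratio -3.53, adjusted p = 1.64e-10). Since the counts are from the 3′ end and the removed part is not stated, its level does not check the genotype.

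Over the day, in WT total RNA, 4 of the 10 genes were rhythmic (a cosine and sine of 24 h, edgeR quasi-likelihood test): Nampt, Nmnat3, Nadsyn1 and Nnmt. Of 11964 genes tested, 18.9% were. In Bmal1-/- RNA 0 of the 10 passed, against 0.00825% (1 gene) of 12126. At an unadjusted p under 0.05, 0 of the 10 passed there too, against 491 of 12126 genes, and DESeq2 called 0 of the 10. The difference in rhythm between the 2 series was tested directly and passed for 1 of the 10, Nampt, against 5.11% of 12082 genes. For Nmnat3, Nadsyn1 and Nnmt the difference did not pass. The Bmal1-/- comparisons, like the nuclear and polysomal ones, use the same WT total libraries as controls.

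Nampt, which makes nicotinamide mononucleotide from nicotinamide, was low in the early light phase in WT total RNA. The 6 libraries at ZT2 ran from 19.8 through a median of 30.1 to 38.8 CPM. Those at ZT6 ran from 18.6 through 31.9 to 54.1 CPM. It was highest around lights off, where the libraries spread most. At ZT10 they ran from 44.4 through 67.5 to 97.7 CPM, and at ZT14 from 28.2 through 89.7 to 105 CPM. At ZT18 they ran from 39.8 through 53.6 to 68.8 CPM, and at ZT22 from 29.0 through 40.7 to 44.8 CPM. The ZT14 library at 28.2 CPM is total replicate 4, whose clock genes lie nearest ZT22. The other 5 ZT14 libraries were all above every library of ZT2, ZT6, ZT18 and ZT22. The fitted peak was at ZT13.9 with a ratio of 2.74 between peak and trough (log2 1.45, SE 0.20, adjusted p = 9.30e-06), and log2 1.57 without the ZT14 libraries nearest another time.

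In Bmal1-/- total RNA the Nampt medians ran from 23.6 to 30.1 CPM over the day. At ZT2 the libraries ran from 16 through a median of 28.9 to 42.5 CPM. At ZT10 they ran from 22.4 through 26.7 to 37.1 CPM. At ZT14 they ran from 24.1 through 30.1 to 33.4 CPM, and at ZT18 from 23.1 through 27.4 to 46.7 CPM. All 6 Bmal1-/- libraries at ZT10 were below all 6 WT libraries, while at ZT14 they overlapped only with WT replicate 4 and at ZT18 1 Bmal1-/- library lay among the WT values. The medians at ZT6 and ZT22 were 23.6 and 27.0 CPM. The log2 peak-to-trough ratio was 0.11 (SE 0.15), a difference of -1.34 from WT (edgeR adjusted p for the difference in rhythm = 0.00037).

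**Figure D1:**
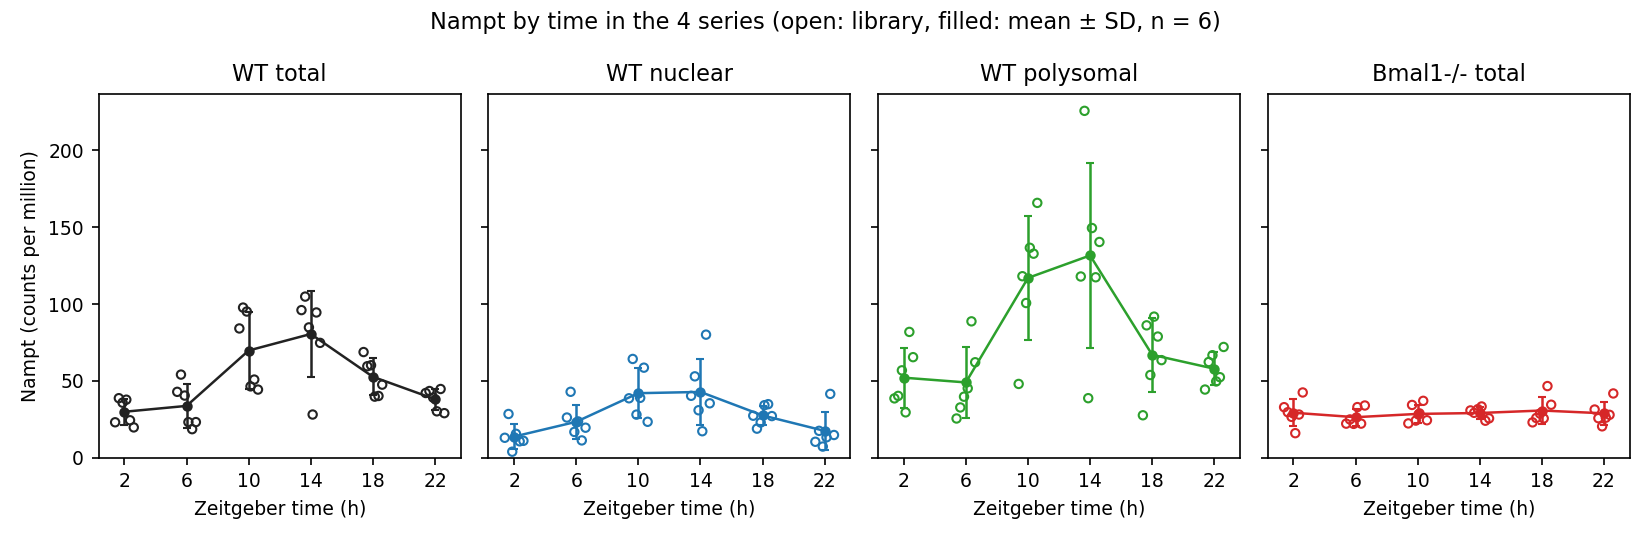
Nampt in CPM against zeitgeber time in the 4 series, with 1 open circle per library and filled points for the mean ± SD of 6 libraries. WT total RNA climbs from a mean of 30.0 CPM at ZT2 to 80.5 CPM at ZT14, while the Bmal1-/- means stay between 26.4 and 30.8 CPM.

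Averaged over the 6 times, Nampt was 1.76-fold lower in Bmal1-/- than in WT total RNA (log2 -0.82, SE 0.09, edgeR adjusted p = 4.03e-11; with a lower mean CPM at 6 of 6 times). By time it was lower at ZT10 (log2 -1.35, adjusted p = 9.77e-06), ZT14 (-1.56, adjusted p = 1.64e-06) and ZT18 (-0.96, adjusted p = 0.00243). At ZT2 it differed by -0.11 (adjusted p = 0.825), at ZT6 by -0.41 (0.283) and at ZT22 by -0.52 (0.169), and these did not pass. The shares of all genes called were 9.68% at ZT2, 10.1% at ZT6, 16.3% at ZT10, 9.75% at ZT14, 12.6% at ZT18 and 7.05% at ZT22; of the 10 NAD genes, 0, 0, 2, 1, 2 and 1 passed at these times, and each was Nampt or Qprt. Split by replicate number, the WT libraries of replicates 1 to 3 were higher than those of 4 to 6 at ZT10, with 84.1 to 97.7 against 44.4 to 50.9 CPM. The difference from Bmal1-/- was log2 -1.15 (adjusted p = 6.76e-15) in replicates 1 to 3 and -0.42 (adjusted p = 0.0163) in 4 to 6, and the difference in rhythm did not pass in replicates 4 to 6 (-1.11, adjusted p = 0.133). In replicates 4 to 6 the Nampt differences at ZT10 (-0.80, adjusted p = 0.155) and ZT18 (-0.45, adjusted p = 0.450) did not pass either. This set holds WT total replicate 4 at ZT14, whose clock genes lie nearest ZT22, and the part of that library was not tested.

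Level changes of the other 9 genes in Bmal1-/- RNA were smaller. In all, 6 of the 10 NAD genes were lower, against 22.4% of 12082 genes, and 1 was higher, against 21.7%; their median log2 change was -0.17, and that of all genes -0.000753. In bulk liver, fewer cells of a type and less RNA per cell cannot be told apart. The summed hepatocyte markers had a median of 78622 CPM in WT and 61674 CPM in Bmal1-/- total RNA, and those of cholangiocytes 8.30 and 18.2 CPM. Stellate cell markers had a median of 298 CPM (217 to 378) in WT and 376 CPM (310 to 513) in Bmal1-/- RNA, and pancreas markers of 34.3 and 102 CPM, with Prss2, Ctrb1 and Pnlip at means below 0.1 CPM in both. The part of these markers in the differences was not tested. As a second measure of level, chosen after seeing the data, the counts at the authors' filtered polyadenylation sites were summed per gene and fitted in the same way (8690 genes). By these site counts the lower level of Nampt (log2 -0.83), Qprt (-0.40), Haao (-0.21) and Nmnat1 (-0.24) passed too. Those of Naprt (-0.14, adjusted p = 0.0695) and Kmo (-0.11, adjusted p = 0.180) did not.

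All 3 members of the tryptophan route (Kmo, Haao and Qprt) were called lower, against 22.4% of 12082 genes. Of 8 other genes tested in this route, 6 were called lower and 2 higher. Of the 3 members Qprt, which joins quinolinic acid to phosphoribose, changed most. The WT libraries at ZT10 ran from 139 through a median of 145 to 168 CPM and the Bmal1-/- libraries from 95.1 through 114 to 126 CPM. The groups did not overlap at that time, nor at ZT22, where WT ran from 128 to 178 CPM and Bmal1-/- from 102 to 122 CPM. At ZT2, WT ran from 58.9 to 184 CPM and Bmal1-/- from 103 to 152 CPM, so that they did. The groups also overlapped at ZT6, ZT14 and ZT18. At ZT18, WT ran from 118 to 155 CPM and Bmal1-/- from 73.8 to 124 CPM. The change over the day was 1.35-fold (log2 -0.43, SE 0.06, adjusted p = 6.14e-09; lower at 6 of 6 times), and it passed at ZT10 (-0.51, adjusted p = 0.00744), ZT18 (-0.50, adjusted p = 0.0113) and ZT22 (-0.49, adjusted p = 0.0226). Not all of these calls by time held in smaller sets. The one at ZT10 was lost in replicates 4 to 6 (adjusted p = 0.226), and those at ZT18 and ZT22 in either set of 3 replicates and with all series fitted together. At ZT22 it was also lost without the libraries with Xist (-0.38, adjusted p = 0.165). Haao, which makes the precursor of quinolinic acid, was at medians from 290 to 361 CPM in WT and from 275 to 315 CPM in Bmal1-/- RNA, with overlap at every time (log2 -0.23, SE 0.06, adjusted p = 0.000552). Kmo, which hydroxylates kynurenine, had medians of 132 to 155 CPM in WT and 128 to 151 CPM in Bmal1-/- (log2 -0.16, SE 0.06, adjusted p = 0.0288). The Kmo call ended by site counts (edgeR adjusted p = 0.180) and under other alternatives given below. None of the 3 was rhythmic in WT total RNA, with log2 peak-to-trough ratios from 0.11 to 0.14.

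Naprt, the entry enzyme for nicotinic acid, had WT medians from 37.0 to 44.8 CPM and Bmal1-/- medians from 33.6 to 41.3 CPM (log2 -0.18, SE 0.07, adjusted p = 0.0233). Nmnat1, the nuclear enzyme that joins the mononucleotide to ATP, was also lower (log2 -0.20, SE 0.07, adjusted p = 0.0114), at medians from 7.76 to 9.06 CPM in WT and 6.82 to 8.84 CPM in Bmal1-/-. Neither was rhythmic in WT total RNA. The calls for Naprt, Nmnat1, Haao, Kmo and Sirt1 ended when all 4 series were fitted together (adjusted p from 0.0838 to 0.310). Within replicates 1 to 3 those for Nmnat1, Kmo and Sirt1 did not pass, and within replicates 4 to 6 those for Naprt, Haao and Sirt1 did not. Without the low-count filter, the calls for Naprt (adjusted p = 0.0515) and Kmo (0.0579) ended.

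Nmnat3, the mitochondrial member of the NMNAT family, peaked in the light phase. WT libraries ran from 4.41 through a median of 5.58 to 6.40 CPM at ZT6, from 3.16 through 6.78 to 8.15 CPM at ZT10, and from 2.23 through 2.89 to 3.56 CPM at ZT18. The ZT6 and ZT18 groups did not overlap. The fitted peak was ZT6.50 and the ratio 2.08 (log2 1.06, SE 0.21, adjusted p = 0.000985). In Bmal1-/- RNA the medians stayed from 4.27 to 7.71 CPM (log2 ratio 0.34, SE 0.25), and the difference in rhythm was -0.72 with an adjusted p of 0.386. The level difference from WT was 0.26 (SE 0.12, adjusted p = 0.0616), with a negative fitted difference at ZT2 (-0.05) and ZT10 (-0.38). It passed without the ZT14 libraries nearest another time (adjusted p = 0.0467) and by site counts (0.33, adjusted p = 0.00412). The rhythm did not pass within replicates 1 to 3 (log2 0.74, adjusted p = 0.155), and by site counts its log2 ratio was 0.70 (adjusted p = 0.0197). In WT total RNA it had a mean of 33.5 counts per library, which limits these estimates.

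Nadsyn1, which amidates the acid form of NAD, had a shallow rhythm that peaked at ZT7.88 with a ratio of 1.36 (log2 0.44, SE 0.12, adjusted p = 0.0170). WT libraries ran from 8.49 through 10.8 to 12.7 CPM at ZT6 and from 5.66 through 7.31 to 9.61 CPM at ZT18. These groups overlapped. The call ended with time as a factor (adjusted p = 0.173), with replicates 1 to 3 (0.184) or 4 to 6 (0.201) alone, and with all 4 series fitted together (0.423). Its level did not pass between the genotypes (log2 0.07, SE 0.07, adjusted p = 0.457), and the replicate sets differed in direction, with -0.21 (adjusted p = 0.108) in replicates 1 to 3 and 0.31 (adjusted p = 0.00601) in 4 to 6.

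Nnmt, which takes nicotinamide out of the salvage route, peaked in the dark. WT libraries ran from 54.3 through a median of 68.6 to 98.1 CPM at ZT10, and from 71.9 through 129 to 297 CPM at ZT18. The high end at ZT18 is replicate 5, far above the next library at 142 CPM. The fitted peak was ZT17.8 and the ratio 2.16 (log2 1.11, SE 0.25, adjusted p = 0.00385). Within replicates 1 to 3 the log2 ratio was 0.50 (adjusted p = 0.380). The Bmal1-/- libraries were widely spread at each time, for example from 8.74 through 78.1 to 139 CPM at ZT6, and gave a log2 ratio of 0.50 (SE 0.34) with its peak at ZT17.9. The difference in rhythm (-0.60, adjusted p = 0.704) and in level (-0.15, SE 0.16, adjusted p = 0.483) did not pass. The level difference was 0.33 (adjusted p = 0.102) in replicates 1 to 3 and -0.72 (adjusted p = 0.00858) in 4 to 6.

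Sirt1, the deacetylase that spends NAD, was 1.14-fold higher in Bmal1-/- RNA (log2 0.19, SE 0.08, adjusted p = 0.0395; 6 of 6 times). Its WT medians were 6.46 to 8.26 CPM and its Bmal1-/- medians 8.33 to 9.89 CPM, and the groups overlapped at every time. The call ended without the ZT14 libraries nearest another time (adjusted p = 0.0519), without those with Xist (0.0566), without the low-count filter (0.0645) and by site counts (log2 0.20, adjusted p = 0.0793). Sirt1 was not rhythmic in WT total RNA, with a log2 ratio of 0.15 (SE 0.14, adjusted p = 0.704).

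**Figure D2:**
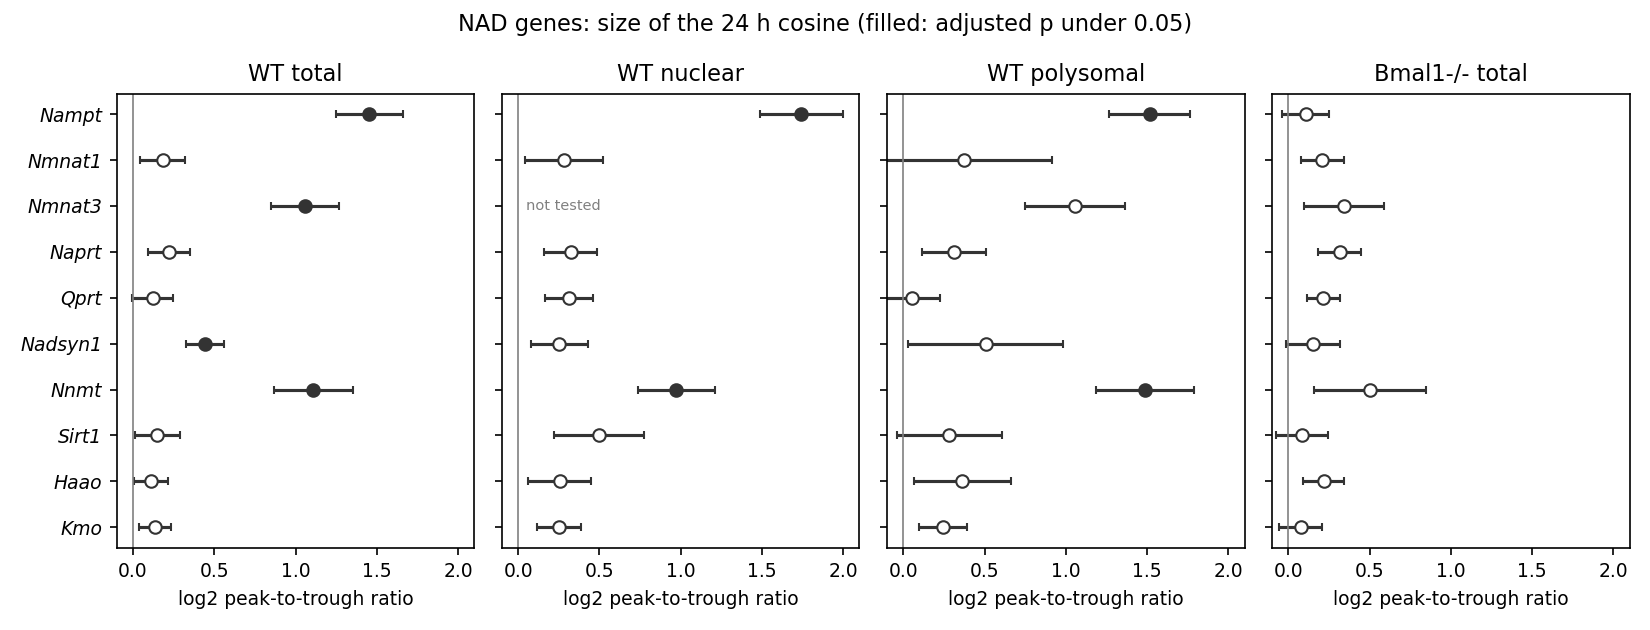
Log2 peak-to-trough ratio ± SE of each NAD gene in the 4 series, filled where the adjusted p is under 0.05. Nampt is at 1.45, 1.74 and 1.51 in the 3 WT series and at 0.11 in Bmal1-/- RNA, and Nnmt is the other gene that passed in all 3 WT series.

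In the other WT series Nampt and Nnmt were also rhythmic. This is 2 of 9 genes tested in nuclear RNA, against 5.99% of 11172 genes, and 2 of 10 in polysomal RNA, against 7.9% of 10691. Same-numbered total and nuclear libraries may come from the same livers, so the rhythms of these series may not be independent. Nuclear Nampt libraries ran from 3.99 through a median of 12.1 to 28.5 CPM at ZT2 and from 17.3 through 37.9 to 80.1 CPM at ZT14 (peak ZT12.6, ratio 3.34, adjusted p = 2.68e-05). Polysomal Nampt ran from 29.6 through 48.6 to 81.9 CPM at ZT2 and from 38.8 through 129 to 226 CPM at ZT14 (peak ZT13.5, ratio 2.86, adjusted p = 0.000154). In both, the lowest ZT14 library was the one whose clock genes lie nearest ZT22. The polysomal Nampt rhythm did not pass within replicates 1 to 3 (log2 1.58, adjusted p = 0.116). That set holds the polysomal ZT14 library nearest ZT22, replicate 3, and the part of this library was not tested. Nnmt peaked at ZT19.2 in nuclear RNA (ratio 1.96, adjusted p = 0.0214) and at ZT19.3 in polysomal RNA (ratio 2.81, adjusted p = 0.00345). Polysomal replicate 1 held the high Nnmt values at ZT18 and ZT22, 670 and 648 CPM, and without the replicate 1 libraries the log2 ratio was 0.81 in place of 1.49 (adjusted p = 0.00817). It did not pass within replicates 1 to 3 (2.1, adjusted p = 0.0717) or 4 to 6 (0.60, adjusted p = 0.146). The nuclear Nnmt call ended with time as a factor (adjusted p = 0.0939), with all 4 series together (0.0850), and within replicates 1 to 3 (0.887) or 4 to 6 (0.0614). Nmnat3 was below the count minimum of 10 in nuclear RNA, and in polysomal RNA its log2 ratio of 1.06 peaked at ZT7.32 and missed the threshold (adjusted p = 0.0585), which it passed with DESeq2 (0.0266) and with all 4 series together (0.00939).

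No difference in rhythm from WT total RNA was called for any of the 10 genes in nuclear or polysomal RNA by edgeR or by DESeq2. The share of all genes called was 0% for both: edgeR called 0 of 11864 genes for nuclear RNA (244 at an unadjusted p under 0.05, 0 by DESeq2) and 0 of 11556 for polysomal RNA (681 and 9). For Nampt the difference in log2 ratio was 0.28 for nuclear and 0.07 for polysomal RNA. A p that misses the threshold does not show that the rhythms are alike.

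Compared with total RNA, nuclear RNA held relatively less of 4 NAD genes, against 42.1% of 11864 genes called lower, and relatively more of 3, against 41.6% called higher. Their median log2 difference was -0.12, and that of all genes -0.00687. These are shares of each library's RNA, and the summed hepatocyte markers, with a median of 49969 CPM in nuclear and 78622 CPM in total RNA, also differed; their part was not tested. The lower genes were Nmnat3 (log2 -1.09, SE 0.14), Nampt (-0.97, SE 0.12), Nmnat1 (-0.69, SE 0.09) and Kmo (-0.18, SE 0.06), with adjusted p from 5.32e-11 to 0.00361. Nampt had a mean of 50.8 CPM ± 25.1 (SD, n = 36) in total and 27.9 CPM ± 16.9 in nuclear RNA, and was lower at 6 of 6 times. Naprt (0.66, SE 0.08, adjusted p = 1.91e-12) was higher in nuclear RNA at 6 of 6 times, and by site counts too (0.93). The direction for Sirt1 depended on which reads were counted. By gene counts it was higher in nuclear RNA (0.95, SE 0.11, adjusted p = 5.26e-12). At its 1 listed site it was lower (-0.68, SE 0.14, adjusted p = 1.29e-05), with 4.39 CPM ± 1.1 in total and 2.57 CPM ± 1.78 in nuclear RNA (SD, n = 36). By gene counts Sirt1 had 7.53 CPM ± 1.57 in total and 15.9 CPM ± 8.08 in nuclear RNA, with libraries from 3.91 to 10.8 and from 4.16 to 34.0 CPM, so the series overlapped. Haao was slightly higher (0.18, SE 0.08, adjusted p = 0.0293), a call that ended without the low-count filter (0.07, adjusted p = 0.573) and within replicates 4 to 6 (0.10, adjusted p = 0.323). The Kmo call also ended within replicates 4 to 6 (-0.04, adjusted p = 0.615). Qprt (-0.01), Nadsyn1 (-0.05) and Nnmt (-0.19) did not pass. By site counts Nadsyn1 was higher in nuclear RNA (0.19, adjusted p = 0.0341), Qprt differed by 0.09 (adjusted p = 0.205), and the lower level of Nmnat3 did not pass (-0.18, adjusted p = 0.276). Those of Nampt (-0.70), Nmnat1 (-0.63) and Kmo (-0.38) passed.

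By gene counts all 10 genes differed between polysomal and total RNA: 6 were higher, against 38.4% of 11556 genes, and 4 lower, against 37.6%. The median was 0.30 for the 10 and 0.0144 for all genes. By site counts Haao, Sirt1 and Qprt did not pass, and Nmnat3 turned direction. The summed hepatocyte markers had a median of 37149 CPM in polysomal RNA against 78622 CPM in total RNA, and their part in these differences was not tested. Nadsyn1 was lowest on polysomes, 4.14-fold lower (log2 -2.05, SE 0.15, adjusted p = 1.84e-20), with a mean of 9.18 CPM ± 1.96 in total and 2.41 CPM ± 1.49 in polysomal RNA (n = 36). Its libraries ran from 5.66 to 14.5 CPM in total and from 0 to 6.95 CPM in polysomal RNA. Nmnat1 was 2.84-fold lower (SE of log2 0.18, adjusted p = 2.48e-11), with 8.33 CPM ± 1.61 against 3.08 CPM ± 2.02. Polysomal RNA gave a mean of 13 counts per library for Nadsyn1 and 16.8 for Nmnat1, so single libraries carry large counting error. Haao differed by -0.66 (SE 0.12), and by -0.95 without polysomal replicate 1. At its 1 listed site the difference was -0.04 (SE 0.10, adjusted p = 0.717), with 328 CPM ± 49.6 in total and 365 CPM ± 151 in polysomal RNA, where the gene count gave 221 CPM. Kmo differed by -0.18 (SE 0.06).

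The genes higher on polysomes by gene counts were Naprt (0.94, SE 0.09, adjusted p = 6.09e-16), Nnmt (0.67, SE 0.15), Nampt (0.55, SE 0.12), Nmnat3 (0.42, SE 0.13), Sirt1 (0.37, SE 0.13) and Qprt (0.24, SE 0.08), each with a higher mean CPM at 6 of 6 times. By site counts Nmnat3 was lower on polysomes (-0.63, SE 0.16, adjusted p = 0.000314). The site values for Sirt1 (0.22, adjusted p = 0.210) and Qprt (0.12, adjusted p = 0.154) did not pass, and those for Naprt (0.94), Nnmt (0.55) and Nampt (0.37) did. For Nnmt the value was 0.37 without polysomal replicate 1 (adjusted p = 0.00151) and 0.25 within replicates 4 to 6 (adjusted p = 0.0980). Nampt differed by 0.11 in replicates 1 to 3 (adjusted p = 0.533) and by 0.98 in 4 to 6 (adjusted p = 2.68e-08). Nmnat3 (adjusted p = 0.215), Sirt1 (adjusted p = 0.261) and Qprt (0.18, adjusted p = 0.136) did not pass within replicates 1 to 3. The Qprt call ended with median-ratio size factors (0.15, adjusted p = 0.0746). Without the filter the Qprt value was 0.17 (adjusted p = 0.0677), and DESeq2 gave 0.15 (adjusted p = 0.0706).

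**Figure D3:**
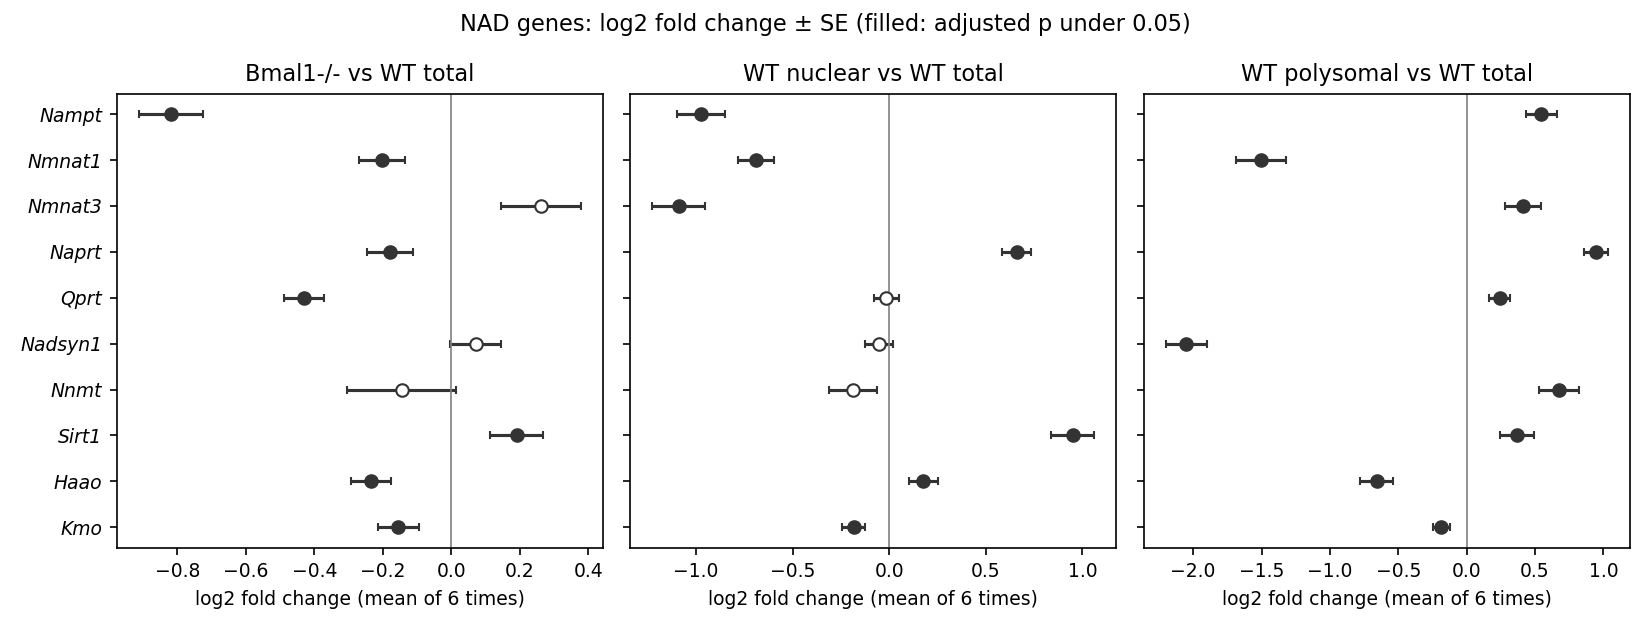
Log2 fold change ± SE of each NAD gene, averaged over 6 times, in Bmal1-/-, WT nuclear and WT polysomal RNA against WT total RNA, filled where the adjusted p is under 0.05. All values are from gene counts. Nampt is the lowest gene in Bmal1-/- RNA at -0.82 and Nadsyn1 the lowest in polysomal RNA at -2.05; by site counts Sirt1, shown at 0.95 in nuclear RNA, was at -0.68, and Nmnat3, shown at 0.42 in polysomal RNA, at -0.63.

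The deposited list of polyadenylation sites places 27 sites in the 10 genes. Haao, Sirt1 and Nnmt have 1 site each. For Naprt and Nnmt, whose strand the gene table does not give, the strand with more site counts was taken. The main Nampt sites are an upstream one at chr12:32850997-32851102 and a distal one at chr12:32851555-32851613 (plus strand), respectively 2320 and 1785 bases before the annotated end of the gene; positions here are the authors'. Usage is a site's share of its gene's site counts, and it was tested for genes with at least 50 counts per library. Shares within a gene are tied, so calls at several sites of the same gene are not separate events.

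Nampt usage moved with time in WT total RNA. The upstream site held 14% ± 2.1 (SD, n = 6) of Nampt site counts at ZT10, with libraries from 11.8 to 17.3%. It held 23.0% ± 4.47 at ZT18, with libraries from 16.8 to 29.1%. The 2 groups overlapped between 16.8 and 17.3%, and the distal site moved the other way, from 81.4% ± 3.45 to 68.8% ± 5.33. Both were called rhythmic (log2 ratio 0.75 with its peak at ZT19.7, adjusted p = 0.00399, and 0.23 with its peak at ZT7.12, adjusted p = 0.0263), 2 of 13 tested sites of the NAD genes against 0.333% of 13217 sites. As tied shares of the same gene, these 2 calls are not separate events. Without the ZT14 libraries nearest another time the upstream log2 ratio was 0.75 (adjusted p = 0.00463), and without those with Xist 0.75 (adjusted p = 0.00817). Neither passed within replicates 1 to 3 or 4 to 6 alone, where the upstream log2 ratio was 0.73 (adjusted p = 0.30) and 0.77 (0.435).

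The other series were then tested for the same pattern, a step chosen after the WT result was seen. No NAD site passed in Bmal1-/- (0% of 13682 sites called by edgeR, 270 at an unadjusted p under 0.05), nuclear (0.0489% of 8176) or polysomal RNA (0.0278% of 10780). The upstream Nampt site ranged from 11.5% ± 1.42 at ZT10 to 20.3% ± 3.76 at ZT18 in Bmal1-/- RNA (log2 ratio 0.50, unadjusted p = 0.0339), and the difference in rhythm from WT did not pass (-0.24, unadjusted p = 0.145; 0.0592% of 13513 sites called). DESeq2 was not run on sites.

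**Figure D4:**
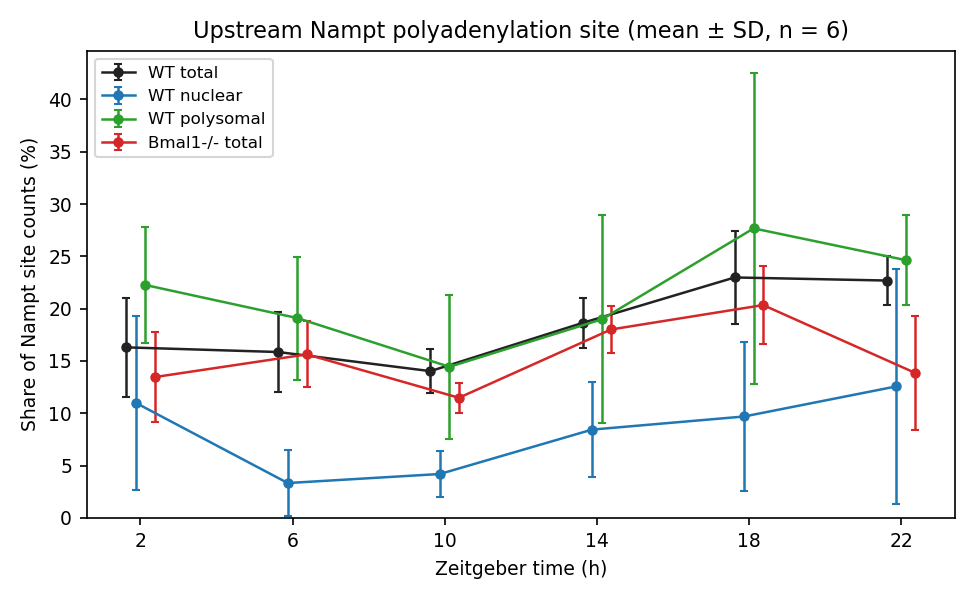
Share of Nampt site counts at the upstream polyadenylation site (mean ± SD, 6 libraries per point) against zeitgeber time. In WT total RNA the share is lowest at ZT10 (14%) and highest at ZT18 (23.0%), and the nuclear means, from 3.33 to 12.6%, lie below those of total RNA at every time.

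Between genotypes, 4 of 13 tested NAD sites changed their share, against 8.75% of 13513 sites. They are the upstream Nampt site, at 18.4% ± 4.73 (SD, n = 36) in WT and 15.5% ± 4.52 in Bmal1-/- RNA (log2 -0.24, SE 0.07, adjusted p = 0.0233), and 3 Kmo sites. Kmo shifted from its last site, chr1:175660672-175660864 (55.8% to 48.9%, log2 -0.19, adjusted p = 0.00712), to chr1:175660242-175660317 (15.3% to 21.2%, 0.46, adjusted p = 0.00264) and chr1:175660205-175660225 (5.33% to 8.61%, 0.66, adjusted p = 0.00261). The call for the last Kmo site ended within replicates 4 to 6 (-0.11, adjusted p = 0.272). The Nampt call ended within replicates 1 to 3 (adjusted p = 0.121) and 4 to 6 (0.0750).

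In nuclear RNA 11 of 12 tested sites differed from total RNA, against 78.7% of 11945 sites. The largest difference was at a Kmo site upstream of the others, chr1:175658544-175658581, 2291 bases before the gene's end. It took 2.46% ± 0.82 of Kmo counts in total RNA, with libraries from 0.917 to 5.68%, and 27.2% ± 10.7 in nuclear RNA, with libraries from 9.18 to 47.3%. The series did not overlap (log2 3.49, SE 0.13, adjusted p = 6.22e-35), and it stayed at 3.30% ± 0.92 in polysomal and 1.73% ± 0.93 in Bmal1-/- total RNA. The upstream Nampt site was used less in nuclear RNA (8.20%, log2 -1.34, SE 0.14, adjusted p = 7.81e-13). Qprt used its upstream site, chr7:127107768-127107931, for 30.0% ± 7.46 of counts in nuclear and 15.8% ± 4.09 in total RNA (0.93, SE 0.08, adjusted p = 1.48e-15). Naprt used its last site, chr15:75890952-75891062, for 83.7% in nuclear and 72.3% in total RNA (0.21, SE 0.03, adjusted p = 1.08e-08).

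In polysomal RNA 5 of 10 tested sites differed from total RNA, against 70.5% of 12686 sites. They were both Naprt sites (the last at 81.9%, log2 0.18, adjusted p = 8.38e-08), the distal Nampt site (69.6%, -0.12, adjusted p = 0.00981) and 2 Kmo sites (0.48 and -0.28). Without polysomal replicate 1 the distal Nampt site (-0.07, adjusted p = 0.0987) and the Kmo site at chr1:175660015-175660127 (-0.20, adjusted p = 0.139) no longer passed. The distal Nampt site also did not pass within replicates 4 to 6 (-0.02, adjusted p = 0.912). The upstream Nampt site differed by 0.17 (adjusted p = 0.134), and the upstream Qprt site passed without the libraries with Xist (0.19, adjusted p = 0.0499).

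Nmnat1, Nmnat3 and Nadsyn1 have fewer counts, and the minimum was lowered to 10 for them after the values were seen. At this minimum all libraries were kept, and no fit left out polysomal replicate 1, the ZT14 or the Xist libraries. Nmnat3 has a site deep in the gene, chr9:98301858-98301882, 118663 bases before its end. That site took 44.7% ± 15.9 of Nmnat3 site counts in total, 80.5% ± 21.3 in nuclear, 26.4% ± 28.0 in polysomal and 50.7% ± 17.8 in Bmal1-/- RNA. Against total RNA it was higher in nuclear (0.86, SE 0.11, adjusted p = 5.35e-10) and lower in polysomal RNA (-1.09, SE 0.27, adjusted p = 0.000269), with wide overlap of libraries. In nuclear RNA this site had a mean of 3.06 CPM and the gene count of Nmnat3 2.19 CPM, so the gene count does not hold all reads of the site. The Nmnat1 site at chr4:149468739-149468757, 1179 bases before the gene's end, fell from 17.8% ± 9.56 in total to 3.43% ± 8.30 in polysomal RNA (-2.84, SE 0.34, adjusted p = 1.23e-10). In polysomal RNA this Nmnat1 site is near the floor, at 0.087 CPM ± 0.17, with shares from 0 to 40%. At the lowered minimum, 13831 of 18761 sites of all genes were called in nuclear and 12666 of 18936 in polysomal RNA.

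**Figure D5:**
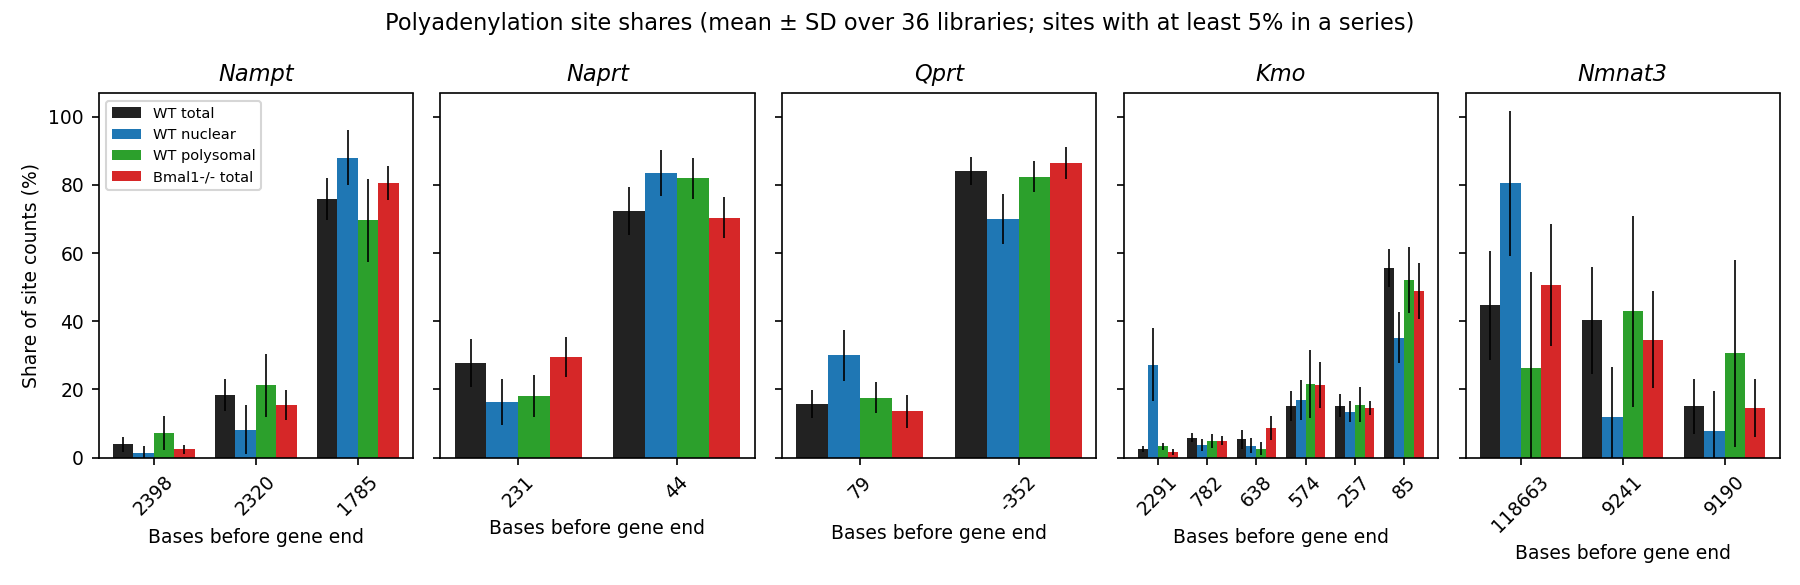
Share of each gene's site counts (mean ± SD, 36 libraries) at sites of 5 NAD genes, placed by their distance before the annotated gene end, in the 4 series. The Kmo site 2291 bases before the end is at 27.2% in nuclear RNA and under 4% in the other series, and the Nmnat3 site 118663 bases before the end is at 80.5% in nuclear RNA.

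Of 35 other NAD genes in the lists used, 28 could be tested against Bmal1-/-: 7 were higher, against 21.7% of all genes, and 13 lower, against 22.4%. The kynurenine route gave 8 of 8 called (2 higher, 6 lower), with Kyat3, a kynurenine transaminase, at log2 -2.19 and Acmsd, which diverts the pathway away from quinolinic acid, at -0.80. Kynu and Aadat of this route had higher means in Bmal1-/- RNA (105 and 103 CPM) than in WT total RNA (73.9 and 68.4 CPM). Salvage and transport gave 7 of 9 (3 higher, 4 lower), with the riboside kinase Nmrk1 at -1.13 and the nucleotidase Nt5e at 0.91. NAD users gave 4 of 8 and nicotinamide oxidation 1 of 3. In WT total RNA 9 of the 28 were rhythmic, against 18.9% of all genes, and in Bmal1-/- RNA 0, against 0.00825%. A difference in rhythm, called for 5.11% of all genes, was called for 4 of them: Nmrk1 (-1.28, adjusted p = 0.00249), Pnp (-0.89, adjusted p = 7.32e-05), Nt5e (-1.77, adjusted p = 0.0192) and Kynu (-0.35, adjusted p = 0.0312). Acmsd peaked at ZT20.7 with a ratio of 4.05 and Nmrk1 at ZT12.4 with a ratio of 3.30. In nuclear RNA 10 of 28 were higher than in total RNA, against 41.6% of all genes, and 16 lower, against 42.1%. In polysomal RNA 8 of 28 were higher, against 38.4%, and 13 lower, against 37.6%.

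Over the 24 group means of log2(CPM + 1), the genes most like Nampt by Pearson correlation, of 7731 with a mean of at least 50 counts, were Slc16a12 (0.92), Nrep (0.92), Snx10 (0.91), Hlf (0.91) and Gm45140 (0.90). These points share libraries, series and times, and the correlations are a description. Slc16a12 went from 11.3 CPM at ZT2 to 31.1 CPM at ZT14 in WT total RNA, and between 15.9 and 19.8 CPM over the day in Bmal1-/- RNA.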

How the data were processed

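The authors deposited raw read counts per gene symbol and per polyadenylation site for each library, with no pooling of replicates. Per the submitters' processing notes, STAR 2.4.2a, edgeR and HOMER were used with mm10 and GRCm38.p5; the counting tool and its strand setting are not given in the sources used here. Reads of overlapping or antisense genes may therefore not be separable; RefSeq lists other genes overlapping Nampt, Nmnat1, Nmnat3 and Haao. All columns matched a sample title (0 left over). The deposited normalized tables were not used.

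Tests were edgeR 4.0.16 quasi-likelihood fits (R 4.3.3, robust, TMM scaling) on the counts of genes that averaged 10 or more per library, with Benjamini-Hochberg adjustment over all genes tested and a threshold of 0.05. Levels were compared over the 6 time means. Rhythm was a 24 h cosine and sine, a difference in rhythm its interaction with the series (a joint test of size and phase, printed with the difference in log2 peak-to-trough ratio). CPM values are plain counts per 1000000. Sites of the authors' filtered list were given to genes through RefSeq GRCm38.p6, and usage was fitted on counts with the log of the gene total plus 0.5 as offset, for sites with at least 5% of genes with at least 50 counts. Alternatives were DESeq2 1.42.0, median-ratio size factors, no low-count filter, replicates 1 to 3 or 4 to 6 alone, all series together, a replicate block, time as a factor, site counts summed per gene (of genes with a ratio of site to gene counts from 0.3 to 1.5) and left-out libraries. The replicate block joined libraries of the same time and number for levels and differences in rhythm. For rhythm within a series and for sites, it was the replicate number as a factor. Counts of times at which a gene was higher or lower are by mean CPM.

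The NAD genes, the other lists and the named-gene rule (all 10, Arntl, the other lists by count and at most 4 largest changes, the 5 genes most like Nampt, every site with at least 5%) were chosen with earlier results of these data known. Among 360 pairs of libraries within groups 0 were identical (smallest chi-square per degree of freedom 4.45). On simulated counts, 97 of 100 genes changed by log2 1 and 93 of 100 changed by log2 0.5 were found between genotypes (12032 genes), as were 90 of 100 rhythms with a ratio of 2 and 3 of 100 with a ratio of 1.3 (11886 genes). Every simulated gene had the same spread, so these rates need not hold for genes with another spread.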

Additional observations from a re-analysis of the deposited data

Results flagged for a closer look

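In 240 groups of 6 libraries (10 genes, 4 series, 6 times), 20 single libraries lay far from the other 5; chance alone gives about 1 in 20 groups. For Nnmt this was so in WT total RNA at ZT14 (replicate 6, 162 CPM), ZT18 (replicate 5, 297 CPM) and ZT22 (replicate 5, 237 CPM), in polysomal RNA at ZT18 and ZT22 (replicate 1, 670 and 648 CPM), and in Bmal1-/- RNA at ZT22 (replicate 2, 185 CPM). The WT total and polysomal libraries named at ZT22 are among the 4 with Xist above 100 CPM. Nampt in nuclear RNA at ZT22 was 41.6 CPM in replicate 5, also one of those 4, against 7.33 to 17.5 CPM in the others. Haao was 211 CPM in WT total replicate 4 at ZT2 and 552 CPM in polysomal replicate 1 at ZT10. Kmo was 222 and 201 CPM in polysomal replicate 2 at ZT6 and ZT10. Nmnat3 was 4.05 CPM in nuclear replicate 4 at ZT10, 0 in nuclear replicate 3 at ZT18 and 7.30 CPM in Bmal1-/- replicate 6 at ZT10. Nadsyn1 was 10.3 CPM in nuclear replicate 4 at ZT22 and 4.05 CPM in polysomal replicate 1 at ZT18. Sirt1 was 10.8 CPM in WT total replicate 2 at ZT2, 0.910 CPM in polysomal replicate 6 at ZT18 and 15.7 CPM in Bmal1-/- replicate 1 at ZT2, and Naprt was 36.4 CPM in Bmal1-/- replicate 5 at ZT14.

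The daily rhythm differed between the genotypes, by a joint test of its size and phase, for 5 genes. They were Nampt (log2 peak-to-trough ratio differing by -1.34 from WT), Nt5e (-1.77), Nmrk1 (-1.28), Pnp (-0.89) and Kynu (-0.35). Size alone was not tested.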

How the results depend on the processing

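The low-count genes limit what could be seen: Nmnat3, Nmnat1, Nadsyn1 and Sirt1 had means under 100 counts per library in each series. Rhythms of a 1.3 ratio were mostly missed on simulated counts. That simulation covered genes of all count levels with the same spread, so its rate is not specific to these genes. Of the single-gene values under the alternatives, 812 kept their direction and side of the threshold, 60 fell short of it, 8 passed it and 13 turned direction. For sites the numbers were 345, 12, 11 and 10. Differences at single times and differences in rhythm entered this tally only where they passed in the main fit, so calls gained there are not in it. The cause of these shifts was not tested. Counts of NAD genes called moved by over 1.5 times as follows. For the level in Bmal1-/- (7) they were 4 without the low-count filter, 4 in replicates 1 to 3 and 2 with all 4 series together. By time (0, 0, 2, 1, 2 and 1) they were 1 at ZT2, 1 at ZT6 and 1 at ZT18 in replicates 1 to 3; 0 at ZT10, 1 at ZT18 and 0 at ZT22 in replicates 4 to 6; 1 at ZT18 and 0 at ZT22 with all series together; 0 at ZT22 without the low-count filter and without the Xist libraries; and 1, 1 and 2 at ZT2, ZT6 and ZT14 without WT total ZT2 replicate 4. The difference in rhythm gave 0 in replicates 4 to 6. Polysomal level (10) gave 6 in replicates 1 to 3. Rhythm in WT total (4) gave 1 in replicates 1 to 3. Nuclear rhythm (2) gave 1 in either set of 3 replicates and with time as a factor, and polysomal rhythm (2) gave 0 and 1 in replicates 1 to 3 and 4 to 6. Counts over all genes at ZT2, 6, 10, 14, 18 and 22 (1169, 1216, 1974, 1178, 1527 and 852) were 457, 531, 1001, 539, 642 and 312 with all series together; 491 and 682 at ZT2 and ZT18 in replicates 1 to 3; 428, 931, 152 and 293 at ZT6, 10, 14 and 22 in replicates 4 to 6; 686 at ZT2 without WT total ZT2 replicate 4; and 552 at ZT22 with site counts summed per gene. The difference in rhythm with Bmal1-/- (617) gave 236 and 200 in replicates 1 to 3 and 4 to 6, 189 with all series and 324 with time as a factor. For nuclear RNA (0) it gave 5 without the filter and 1 with the replicate block, and for polysomal RNA (0) 424 without the filter, 2 in replicates 4 to 6, 30 with all series, 7 without polysomal replicate 1, 1 without the ZT14 libraries, 2 with the replicate number as a factor and 9 with DESeq2. Rhythm in WT total (2260) gave 1342 and 622 in these sets, 1019 with all series and 1411 with time as a factor; in nuclear RNA (669) 174, 237 and 419 with time as a factor; in polysomal RNA (845) 2107 without the filter, 115 in replicates 1 to 3, 2679 with all series, 1506 with the replicate block and 346 with time as a factor; in Bmal1-/- RNA (1) 21 without the filter, 6 with all series, 3 with time as a factor, and 0 in either set, without the Xist libraries, with the block, with site counts and with DESeq2. Sites called gave 735 in replicates 1 to 3 and 1963 with the block for Bmal1-/- (1183). For genes with at least 200 counts they were 3772 of 4502 tested in nuclear RNA (9400 of 11945). In polysomal RNA they were 3846 of 5270 (8947 of 12686). For rhythm in WT total (44) they were 7 in replicates 1 to 3, 3 in replicates 4 to 6 and 95 with the block. With the minimum of 10 counts, NAD sites called were 17 of 22 tested in nuclear RNA (11 of 12) and 11 of 20 in polysomal RNA (5 of 10). At that minimum 13831 of 18761 sites of all genes were called in nuclear and 12666 of 18936 in polysomal RNA. In replicates 1 to 3 and 4 to 6, NAD sites called were 8 and 3 for polysomal RNA, and 0 in either set for rhythm (2). Directions turned for Nadsyn1 (-0.21) and Nnmt (0.33) between genotypes, Nnmt (0.047) and Qprt (0.18) in nuclear RNA, and for sites of Nadsyn1 (-0.12 and 0.075), Qprt (-0.050 and 0.28) and Kmo (-0.041), all in replicates 1 to 3. Qprt in nuclear RNA also turned with median-ratio factors (0.0032), DESeq2 (0.0025), all series (0.023), without the Xist libraries (0.034) and without WT total ZT2 replicate 4 (0.00094). With site counts summed per gene, chosen after seeing the data, Sirt1 (-0.68), Nadsyn1 (0.19) and Qprt (0.094) turned in nuclear RNA and Nmnat3 (-0.63) in polysomal RNA. Polysomal sites turned in replicates 4 to 6 for Kmo (-0.032), Nampt (-0.074) and Qprt (0.020 and -0.11), and for Kmo without polysomal replicate 1 (-0.077).

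The replicate numbers would pair the samples if every same-numbered pair correlated above 0.1, and by that criterion they paired no series with WT total RNA. Deviations of same-numbered libraries from their group means had a mean correlation with WT total RNA of 0.35 in nuclear (34 of 36 pairs over 0.1, 29 best with their own number, a hint from the data and not the design), -0.13 in polysomal (1 of 36, 0 best) and 0.08 in Bmal1-/- RNA (18 of 36, 13 best). Odd libraries matched too. In total and nuclear RNA alike, ZT14 replicate 4 lay nearest ZT22 and ZT22 replicate 5 had Xist above 100 CPM. Whether same-numbered libraries share a liver was not tested, and the main nuclear comparisons use no such pairing. With the replicate block, 7 NAD genes were called in Bmal1-/-, 8 in nuclear and 9 in polysomal RNA, and Nampt kept a log2 change of -0.79 in Bmal1-/- (adjusted p = 4.50e-07). The block ended the polysomal Sirt1 call (0.27, edgeR adjusted p = 0.0714) and gave a call for nuclear Nnmt (-0.17, adjusted p = 0.0378). Rhythms within a series and sites were fitted with the replicate number as a factor in place of the block. That fit gave calls for the polysomal Nmnat3 rhythm (1.14, edgeR adjusted p = 0.0176) and 3 sites of Kmo and Nampt.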
